A study of Homo sapiens with 4 samples.

Results

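The GADD45 family consists of 3 genes, GADD45A, GADD45B and GADD45G, taken by their symbols from a table of 61806 genes. The family was selected on the FPKM of GADD45A, which was about 2-fold higher after melatonin in both cell lines, so the change of GADD45A and of its relatives in that comparison is given as a description and not as a test. RNA was measured in JJ012, a human chondrosarcoma cell line, and in 143B, a human osteosarcoma cell line, both held in suspension so that the cells could not attach. For each line there was 1 untreated control library and 1 library of cells given 1 mM melatonin for 72 h, 4 libraries in all. The table marks 1 column of each line with a T, taken here as the treated library, and the unmarked column as its control. With 1 library per condition, no difference could be set against the spread between cultures, and each line stands for itself alone.

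GADD45 proteins are small, acidic, mostly nuclear proteins without known enzyme activity, which act by binding other proteins. They are induced by DNA damage and other stress. They bind and activate MAP3K4 at the head of the p38 and JNK kinase cascades, inhibit the mitotic kinase CDK1 with cyclin B1, bind the replication clamp PCNA and the CDK inhibitor CDKN1A, and have been linked to repair-based removal of DNA methylation. GADD45A is the classical DNA damage-induced member, GADD45B is known as a target of NF-kB and TGF-beta signalling, and GADD45G as a cytokine-induced member that is silenced in many tumours.

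The genes lie on separate chromosomes. By the positions in the authors' table, GADD45A (ENSG00000116717) lies on the plus strand of chromosome 1 from 67685201 to 67688334, GADD45B (ENSG00000099860) on the plus strand of chromosome 19 from 2476122 to 2478259, and GADD45G (ENSG00000130222) on the plus strand of chromosome 9 from 89605012 to 89606555. Each was listed with 0 overlapping genes in the table. In GENCODE 29 (GRCh38), the transcript chosen for each gene had 4 exons and an open reading frame of 165 codons in GADD45A, 160 in GADD45B and 159 in GADD45G. Over the aligned coding bases, identity was 62.9% between GADD45A and GADD45B, 67.3% between GADD45A and GADD45G and 70.1% between GADD45B and GADD45G. The most alike stretch of 60 coding bases is shown because it is where reads of one member could most easily be taken for another. It lies in exon 3 of each gene, at chr1:67686411-67686470, chr19:2477090-2477149 and chr9:89605728-89605787, and 47 of the 60 positions, in capitals, are the same in all 3 genes.
GADD45A: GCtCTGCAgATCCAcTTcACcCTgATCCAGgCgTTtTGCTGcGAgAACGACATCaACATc
GADD45B: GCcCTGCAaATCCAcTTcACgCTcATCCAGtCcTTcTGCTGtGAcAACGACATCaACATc
GADD45G: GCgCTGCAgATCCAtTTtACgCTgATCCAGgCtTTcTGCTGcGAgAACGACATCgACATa
Over whole transcripts, the longest identical run shared by any pair was 18 bases, between GADD45A and GADD45G. Reads were 150 bases long, so that a read inside one member differed from the other members at several positions. RefSeq also lists a GADD45A pseudogene, GADD45AP1, with which reads of GADD45A could be shared.

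The bases just upstream of the start site are shown for GADD45B and GADD45G, from RefSeq on GRCh38.p14, since these members differed most between JJ012 and 143B after melatonin by CPM. GADD45A has no entry in that table. Capitals mark the E-box core CACGTG, the CCAAT box and the TATA box letters TATAAA, each searched on both strands in the 250 bases before the start, together with the octamer ATTTGCAT. The windows are chr19:2475877-2476126 and chr9:89604762-89605011, both on the plus strand.
GADD45B: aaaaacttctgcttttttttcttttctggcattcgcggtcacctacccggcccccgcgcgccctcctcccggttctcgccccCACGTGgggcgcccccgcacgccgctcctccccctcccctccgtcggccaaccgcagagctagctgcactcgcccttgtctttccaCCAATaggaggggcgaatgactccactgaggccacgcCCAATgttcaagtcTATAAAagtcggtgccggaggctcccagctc
GADD45G: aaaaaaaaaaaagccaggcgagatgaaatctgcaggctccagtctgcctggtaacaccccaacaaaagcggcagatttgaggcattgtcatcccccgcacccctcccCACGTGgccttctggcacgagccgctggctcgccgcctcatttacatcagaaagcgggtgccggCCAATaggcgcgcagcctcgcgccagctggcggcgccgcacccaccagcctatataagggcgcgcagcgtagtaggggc
Both windows held 1 CACGTG, which 6.34% of the 35116 promoters of the table held. GADD45B had 2 CCAAT letters and GADD45G had 1, against 32.0% of promoters with at least 1. TATAAA was in the GADD45B window and not in that of GADD45G, and 10.7% of promoters held it. Other spellings of the TATA box were not searched, and the GADD45G window holds the letters tatataag near its end. The octamer, found in 1.63% of promoters, was in neither window. These matches describe the letters and do not show that a factor binds there.

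The libraries held between 15889564 and 19218343 counts, and between 13198 and 14477 genes reached 1 FPKM (counts normalized to exonic length and library total). Mitochondrially encoded genes took between 1.63% and 6.78% of the counts. Of the 7 chondrocyte markers, 2 reached 1 FPKM in the JJ012 control, SOX9 with 15.06 FPKM and COL11A2 with 1.67 FPKM, while COL2A1 and ACAN, which define cartilage matrix, were at 0.11 FPKM or less in all 4 libraries. Of the 7 osteoblast markers, RUNX2 had between 2.59 and 4.28 FPKM in the 4 libraries. IBSP had 4 and 0 counts in JJ012 and 0 counts in both 143B libraries. SP7 and ALPL were at 0.36 FPKM or less in all 4 libraries. SPP1 had 79.39 FPKM in the JJ012 control and 0.53 FPKM or less in 143B, and COL1A1 10.92 FPKM and 0.49 FPKM or less. COL2A1, ACAN, IBSP, SP7 and ALPL were thus near 0 in both lines. SPP1 and COL1A1 were near 0 in 143B and higher in the JJ012 control. The osteoblast marker BGLAP went the other way, with 1.44 and 1.21 FPKM in 143B and 0.81 and 0.26 FPKM in JJ012. The mesenchymal marker VIM was lower in treated than in untreated JJ012, at 610.99 and 224.27 FPKM, and had 1676.32 and 1517.09 FPKM in 143B. SOX9 went with it in JJ012, from 15.06 to 6.16 FPKM, as did COL1A1, from 10.92 to 0.77 FPKM. The summed level of the 7 chondrocyte markers was 17.69 FPKM in the JJ012 control and 7.13 FPKM with melatonin, against 16.77 and 13.05 FPKM in 143B. Most of each sum was SOX9 alone, which had 15.48 and 12.09 FPKM in 143B.

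GADD45A had the highest FPKM of the family in 3 libraries and was level with GADD45B within counting error in the 143B control. It had 61.36 FPKM in the JJ012 control and 136.28 FPKM with melatonin, from 2270 and 4235 counts. In 143B it had 27.10 FPKM in the control and 58.71 FPKM with melatonin, from 829 and 1940 counts. Both melatonin libraries were higher than their own controls, and by FPKM the treated 143B library was close to the untreated JJ012 library. With the libraries rescaled to TPM, these 2 were at 262.1 and 218.8. In bulk RNA, a change in the cells that make up the culture and a change in RNA per cell cannot be told apart.
The ratio of counts normalized to the library total (CPM), melatonin over control, was 2.22 in JJ012 (95% interval, 2.11 to 2.34) and 2.17 in 143B (2.00 to 2.35). The intervals are exact Clopper-Pearson intervals and cover counting error only, not variation between cultures. On the scale of log2((FPKM + 1) ratio), GADD45A was at 1.14 in JJ012 and at 1.09 in 143B. A gene was counted as changed at an absolute value of at least 0.58, the fold threshold of the study.
Of all genes that reached 1 FPKM in the control or the treated library, 19.6% were past this threshold upward in JJ012 and 6.09% in 143B, and 1.16% of the 11822 genes tested in both lines were past it upward in both. In JJ012, 823 of 15794 tested genes, GADD45A included, had a log2 fold change at least as high as that of GADD45A, and in 143B 172 of 14135. The place of GADD45A was further out in 143B, where fewer genes moved. GADD45A was selected on this change, so its place is a description only.
Untreated, GADD45A was 2.26-fold lower in 143B than in JJ012 by CPM (2.09 to 2.45), and with melatonin it was 2.32-fold lower (2.20 to 2.45). The JJ012 control placed GADD45A above 96.2% of the genes with at least 1 FPKM and the treated library above 99.0%, against 89.7% and 96.1% in 143B.

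**Figure D1:**
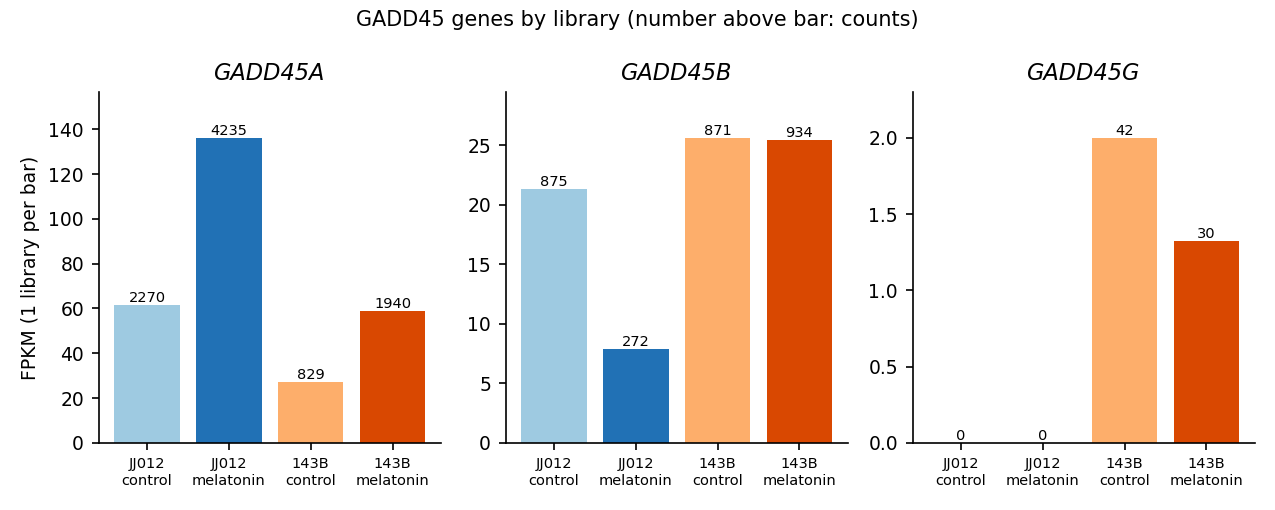
Level of each GADD45 gene in FPKM (vertical axis, from 0, own scale per gene) in the 4 libraries, with the counts printed above each bar and 1 library per bar. GADD45A is higher with melatonin in both lines, GADD45B is lower with melatonin in JJ012 (21.30 and 7.88 FPKM) and level in 143B (25.64 and 25.45 FPKM), and GADD45G is at 0 counts in JJ012.

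GADD45B, whose product binds MAP3K4 and the kinase MAP2K7, was lower with melatonin in JJ012 and level in 143B. In JJ012 it had 21.30 FPKM in the control and 7.88 FPKM with melatonin, from 875 and 272 counts. In 143B it had 25.64 FPKM in the control and 25.45 FPKM with melatonin, from 871 and 934 counts. By FPKM the 2 controls and the treated 143B library lay close together, and the treated JJ012 library was the single low one. With the libraries rescaled to TPM, the JJ012 control was at 75.9 and the 143B libraries at 119.1 and 113.6, and treated JJ012 was at 34.0.
By CPM, GADD45B was 2.70-fold lower with melatonin in JJ012 (2.36 to 3.11), and the ratio in 143B was 0.993 (0.904 to 1.09). The log2 fold changes were -1.33 and -0.01. Of the tested genes, 18.6% were past the threshold downward in JJ012 and 6.65% in 143B, and in JJ012 409 of the 15794 were at least as far down as GADD45B. The pattern of GADD45B, lower in JJ012 and between the thresholds in 143B, was that of 12.4% of the genes tested in both lines. The change in JJ012 divided by that in 143B was 0.373 (0.315 to 0.441), a difference between the lines larger than counting error. The markers VIM, SOX9 and COL1A1 were lower in the same treated JJ012 library, and their part in the change of GADD45B was not tested.
Untreated, GADD45B was 1.20-fold higher in 143B than in JJ012 (1.09 to 1.32), and with melatonin 3.23-fold higher (2.82 to 3.71).

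GADD45G, the member with the lowest level, had 0 counts in both JJ012 libraries, which allows at most 0.118 FPKM in the control and 0.140 FPKM with melatonin at the floor of 3 counts. In 143B it had 2.00 FPKM in the control and 1.32 FPKM with melatonin, from 42 and 30 counts. Against the floor of each JJ012 library, GADD45G was at least 16.9-fold higher in the 143B control and at least 9.41-fold higher in treated 143B, with the 143B counts taken as exact. Of the 12275 genes with at least 1 FPKM in both 143B libraries, 1.72% likewise had 0 counts in both JJ012 libraries. The change of GADD45G with melatonin in 143B was within counting error, at a CPM ratio of 0.661 (0.400 to 1.08) and a log2 fold change of -0.37. No change could be given in JJ012.

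**Figure D2:**
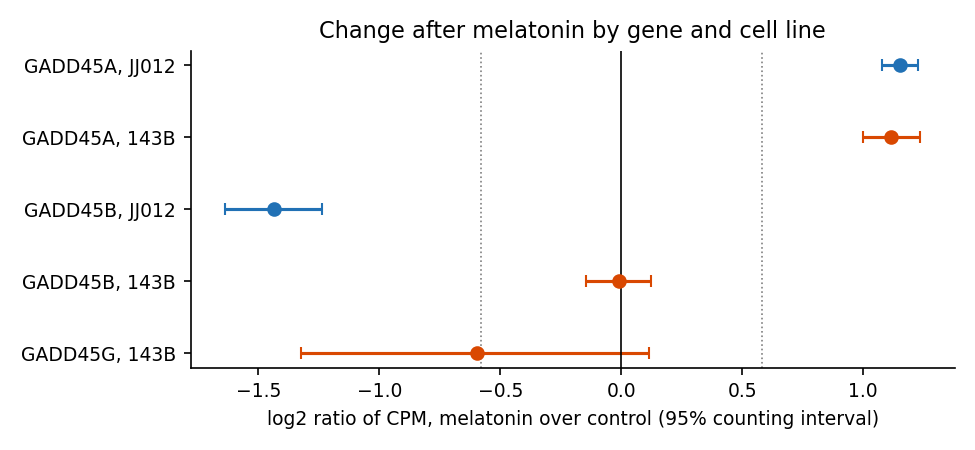
Log2 ratio of CPM, melatonin over control (horizontal axis), for each member and line with counts, with exact 95% counting intervals as bars and dotted lines at the fold threshold of 0.58. Both GADD45A points lie near 1.1, GADD45B lies at -1.43 in JJ012 and at -0.01 in 143B, and the interval of GADD45G in 143B includes 0.

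Exonic length moved with the change in JJ012 over all tested genes, with a Spearman correlation of 0.24 across 15794 genes, against -0.01 in 143B. The 500 tested genes nearest in exonic length had a median log2 fold change of -0.33 around GADD45A and -0.37 around GADD45B in JJ012, and of 0.10 and 0.08 in 143B. With this running median subtracted, GADD45A was at 1.47 and GADD45B at -0.96 in JJ012, both past the threshold in their former direction.

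The balance within the family was compared inside each library, where library size drops out. Untreated JJ012 had a GADD45B to GADD45A ratio of 0.347 in FPKM (0.321 to 0.375), and melatonin-treated JJ012 had 0.0578 (0.0510 to 0.0654). In 143B the ratio was 0.946 in the control (0.859 to 1.04) and 0.433 with melatonin (0.401 to 0.469). The 143B control was the single library in which GADD45A and GADD45B were level within counting error. The ratio was lower with melatonin in both lines, through a higher GADD45A in both and also a lower GADD45B in JJ012.
GADD45A made up 74.2% of the summed FPKM of the family in the JJ012 control and 94.5% with melatonin, and 49.5% and 68.7% in 143B. GADD45G made up 3.65% in the 143B control and 1.54% with melatonin. The summed level of the family was 82.66 FPKM in the JJ012 control and 144.16 FPKM with melatonin, 1.74-fold higher. In 143B it was 54.74 and 85.48 FPKM, 1.56-fold higher. GADD45A, on which the family was selected, was the only member with a higher FPKM after melatonin in either line.

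**Figure D3:**
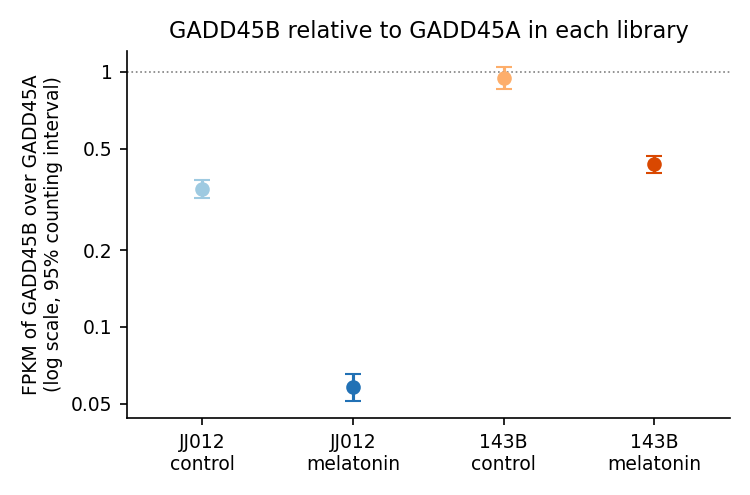
FPKM of GADD45B divided by that of GADD45A in each library (vertical axis, log scale), with exact 95% counting intervals and a dotted line at 1. The interval of the 143B control crosses 1, and the treated JJ012 library is the lowest at 0.0578.

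The genes around the family were taken from 7 lists of 75 genes, with DDIT3 in 2 of them, and their members were counted by the same threshold. Of the 67 list genes tested in JJ012, 13 were higher with melatonin (19.4%, against 19.6% of all tested genes) and 5 lower (7.46%, against 18.6%), with a median log2 fold change of 0.19, against 0.01 over all tested genes. Of the 66 tested in 143B, 3 were higher (4.55%, against 6.09%) and 6 lower (9.09%, against 6.65%), with a median of -0.02 against 0.03. The list values were not adjusted for exonic length, with which the change in JJ012 rose over all tested genes (Spearman correlation, 0.24).

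Among the transcription factors that act on GADD45 genes, 6 of 19 tested genes were higher in JJ012 and 0 lower, with a median of 0.39. In 143B 1 of 19 was higher and 2 were lower, with a median of -0.02. Over all tested genes, 19.6% were higher and 18.6% lower in JJ012, and 6.09% and 6.65% in 143B. When the libraries were rescaled to TPM, which moved the median of all tested genes in JJ012 to 0.27, 11 of the 19 were higher in JJ012. With that scaling, 5468 of all 15794 tested genes were higher in JJ012.
FOXO3, a forkhead factor of growth factor withdrawal, had 8.22 and 23.85 FPKM in JJ012 (log2 fold change, 1.43) and 24.04 and 20.77 FPKM in 143B (-0.20). ATF4, the translationally controlled factor of the integrated stress response, had 135.49 and 202.61 FPKM in JJ012, just under the threshold at 0.577. With TPM it was past the threshold in JJ012, at 0.85. In 143B ATF4 had 345.50 and 352.52 FPKM. SMAD3, which carries TGF-beta signals, was higher in JJ012 at 0.73 and had -0.04 in 143B.
DDIT3, the CHOP factor of the unfolded protein response, was 3.67-fold higher by CPM in JJ012 (3.43 to 3.93), from 44.23 to 162.32 FPKM, and 1.61-fold lower in 143B, from 17.53 to 10.88 FPKM. ATF3, a stress-induced partner of JUN, had log2 fold changes of 0.71 in JJ012 and -0.60 in 143B. EGR1, an immediate early factor, was 2.70-fold higher in 143B (2.52 to 2.89), from 23.13 to 62.36 FPKM, and had 2.67 and 3.42 FPKM in JJ012. None of the 19 factors was past the threshold upward in both lines, which 1.16% of all genes tested in both were, and with TPM EGR1 was, at 0.58 and 1.37.

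The mRNAs of GADD45A and GADD45B are known targets of nonsense-mediated decay. Of the 11 genes of decay and RNA binding, 2 were higher in JJ012 and 0 lower (median, 0.38), and 0 of 11 were past the threshold in 143B (median, 0.00). By the main setting, 19.6% of all tested genes were higher and 18.6% lower in JJ012, and 6.09% and 6.65% in 143B. With TPM, 7 of the 11 were higher in JJ012, against 5468 of all 15794 tested genes. SMG1, the kinase that phosphorylates UPF1, had 5.39 and 19.16 FPKM in JJ012 (log2 fold change, 1.66), and reads of SMG1 can be shared with its near-identical pseudogenes. The helicase UPF1 itself had 8.93 and 15.27 FPKM (0.71). SMG5 was under the threshold, at 0.45 in JJ012 and 0.12 in 143B.

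In the stress kinase cascade, 1 of 9 tested genes was higher in JJ012 and 0 lower, and 0 of 10 were past the threshold in 143B. The single one was MAP3K4, the kinase that GADD45 proteins activate, with 4.81 and 8.81 FPKM in JJ012 (0.76) and 8.73 and 7.37 FPKM in 143B (-0.22). By the main setting, 19.6% of all tested genes were higher and 18.6% lower in JJ012, and 6.09% and 6.65% in 143B. With TPM, 5 of the 9 were higher in JJ012, against 5468 of all 15794 tested genes. In 143B 1 of the 10 was lower with TPM, against 1520 of all 14135.

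Among the cell cycle partners, 1 of 9 tested genes was higher and 3 were lower in JJ012 (median, -0.44), and 1 of 8 was higher and 3 were lower in 143B (median, -0.50). In 143B, 5 of the 8 were lower with TPM, with which 1520 of the 14135 tested genes were lower. With CPM 5 were lower too, but there the filter was set on CPM and let in CDC25C as well. By the main setting, 6.65% of all tested genes were lower in 143B, against 18.6% in JJ012, and 6.09% and 19.6% were higher. CCNB1, the cyclin of the CDK1 complex that GADD45 proteins inhibit, had 18.35 and 8.43 FPKM in JJ012 (-1.04) and 9.80 and 5.08 FPKM in 143B (-0.83). AURKA, a mitotic kinase, had -0.84 and -0.68. CDK1 had 8.44 and 4.10 FPKM in 143B (-0.89) and 6.71 and 4.53 FPKM in JJ012, at -0.48 under the threshold.
CDC25C, the phosphatase that activates CDK1, was lower in JJ012 at -0.64, while WEE1, the kinase that inhibits it, was higher there at 0.62 and had -0.54 in 143B. PCNA was level in JJ012, at 12.05 and 11.61 FPKM, and 1.62-fold higher in 143B (1.33 to 1.99). CDKN1A, a CDK inhibitor induced by DNA damage, had 55.11 and 50.41 FPKM in JJ012 and 94.30 and 107.14 FPKM in 143B, under the threshold in both lines.

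None of the 8 tested genes of active DNA demethylation was past the threshold in JJ012 or in 143B. Over all tested genes, 19.6% were higher and 18.6% lower in JJ012, and 6.09% and 6.65% in 143B. With TPM 1 was lower in 143B, as were 1520 of all 14135 tested genes. The glycosylase TDG, which removes oxidised methylcytosine, had 4.57 and 5.08 FPKM in JJ012 and 6.66 and 7.70 FPKM in 143B. Of the remaining partners, GADD45GIP1, which binds GADD45 proteins and is a component of the mitochondrial ribosome, had 15.15 and 6.44 FPKM in JJ012 (-1.12) and 10.42 and 10.80 FPKM in 143B (0.05). RXRA, a nuclear receptor, was also lower in JJ012 (-0.61, and -0.09 in 143B), but not with TPM, at -0.43. PPARG, another nuclear receptor, had 8.89 and 4.63 FPKM in 143B (-0.81) and at most 9 counts in JJ012.

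Among other stress-induced growth arrest genes, 4 of 10 tested genes were higher in JJ012 and 0 lower (median, 0.37), and 1 of 8 was higher and 1 lower in 143B (median, -0.07). By the main setting, 19.6% of all tested genes were higher and 18.6% lower in JJ012, and 6.09% and 6.65% in 143B. With TPM, 7 of the 10 were higher in JJ012, against 5468 of all 15794 tested genes. PLK3, a stress-responsive polo-like kinase, was higher in both lines, with 3.00 and 10.85 FPKM in JJ012 (1.57) and 4.37 and 7.23 FPKM in 143B (0.62). It was the single gene of the 75 past the threshold upward in both, as were 1.16% of all genes tested in both, and with TPM EGR1 was too. TRIB3, a pseudokinase induced by ATF4 and CHOP, had 12.43 and 28.59 FPKM in JJ012 (1.14) and -0.19 in 143B. PPP1R15A, the GADD34 phosphatase subunit, was at 0.64 in JJ012 and -0.32 in 143B.

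**Figure D4:**
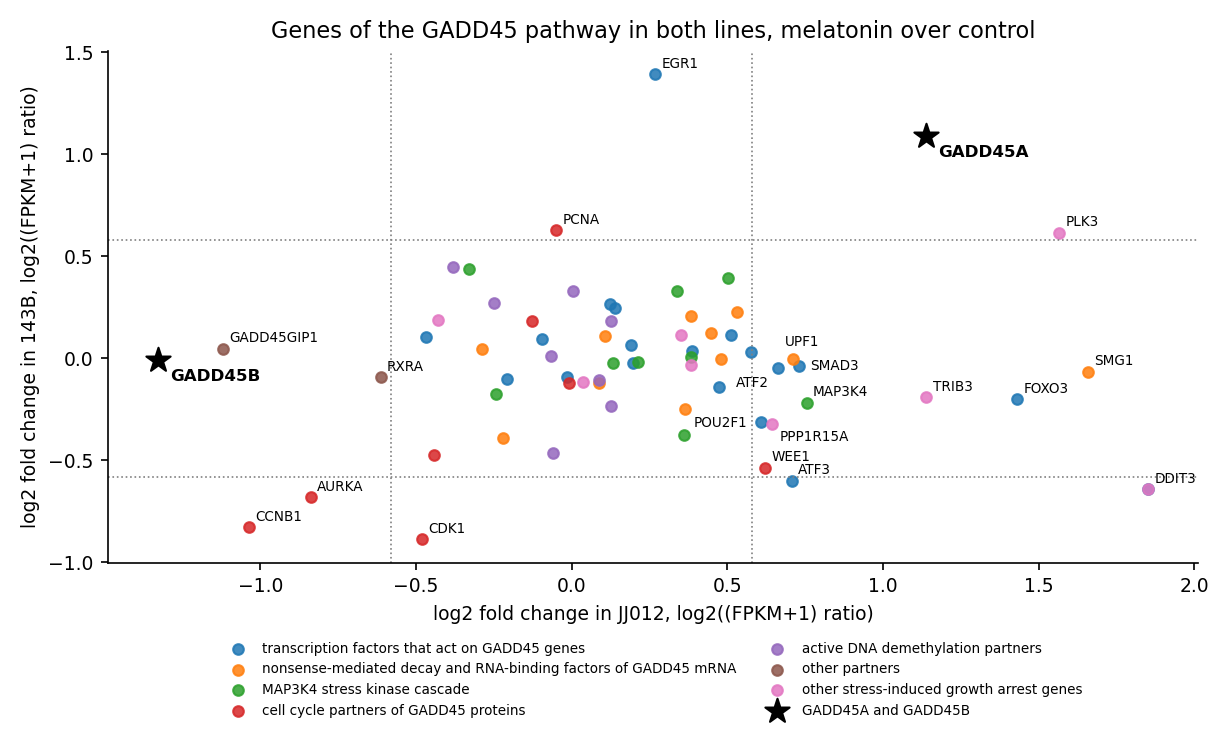
Log2 fold change with melatonin in JJ012 (horizontal axis) against that in 143B (vertical axis), both as log2((FPKM + 1) ratio), for list genes tested in both lines (dots coloured by list, names given past the dotted lines at 0.58) and for GADD45A and GADD45B (stars). GADD45A lies past the threshold upward in both lines with PLK3, and GADD45B lies at the left edge, level in 143B like GADD45GIP1.

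The genes with the most similar profile were ranked by the Euclidean distance between log2(FPKM + 1) values over the 4 libraries, each centred on its own mean, among the 5855 genes that reached 5 FPKM in both lines. For GADD45A, the nearest with a symbol were SDAD1 (distance 0.380), ITPRIPL2 (0.382) and CEP131 (0.397), and the other 2 of the first 5 had no symbol in the table. All 3 were higher with melatonin in JJ012, by 0.99 (CEP131) to 1.27 (ITPRIPL2). In 143B they were higher by 0.68 or less, below the 1.09 of GADD45A. Of the 2 without a symbol, ENSG00000265982 was at 1.06 in JJ012 and 0.95 in 143B, and ENSG00000272240 at 0.93 and 0.67.
GADD45B had much closer neighbours. PGK1, which encodes the glycolytic enzyme phosphoglycerate kinase, was at a distance of 0.0417, with 625.94 and 253.52 FPKM in JJ012 and 778.11 and 750.84 FPKM in 143B. It was followed by PPP1R14B (0.170), the glycolytic PGAM1 (0.172), the matrix proteoglycan gene AGRN (0.178) and HOXB7 (0.197).
For GADD45G, the nearest were NFIL3 (0.0316), FAM219A (0.0702), MXI1 (0.104), INSIG1 (0.114) and C20orf96 (0.119). They were expressed in JJ012, NFIL3 at 38.08 and 39.10 FPKM, so the likeness lies in the differences between libraries on a scale where the pseudocount compresses the low levels of GADD45G. With 4 libraries, such a ranking describes these profiles only.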

How the data were processed

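Poly(A)-selected RNA of 4 libraries was sequenced as paired reads. The counts deposited by the authors are whole numbers per gene. The deposited FPKM were computed by the authors from the counts, the exonic length and the library total. The submitters' processing notes name cutadapt 1.9.1, HISAT2 2.2.1, HTSeq 0.6.1, DESeq2 and hg38. The strand setting is not given in the sources used here. Columns were matched to samples by cell line and the suffix T.

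Fold changes were computed from FPKM with a pseudocount of 1, which understates changes of low genes, over genes that reached 1 FPKM in either library of the line. CPM ratios had exact 95% intervals for counting error, and the ratio between lines an exact conditional interval. The floor of 3 counts was between 0.156 and 0.189 CPM. Count models across genes need replicates and were not used. Alternatives were a pseudocount of 0.1 FPKM, TPM, CPM, centring, TMM library sizes, no filter, 5 FPKM and a threshold of 1. The running median over length and the list counts under other scalings were added after seeing the data. The members, the 7 lists and the tests were chosen with earlier results of these data known. Named genes were the members, fixed genes of each list, up to 4 per direction and line past the threshold, and the 5 nearest profiles. Some genes of the lists are not reported here. Procedures were tested on simulated data. Python 3.11.15, scipy 1.17.1, R 4.3.3 and edgeR 4.0.16 (TMM factors) were used.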

Additional observations from a re-analysis of the deposited data

Results flagged for a closer look

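The change of GADD45B with melatonin differed between the cell lines, with a log2 ratio of the JJ012 change to the 143B change of -1.42 (95% interval for counting error, -1.67 to -1.18). This came from 875 and 272 counts in JJ012 and from 871 and 934 counts in 143B. With 1 library per condition, the interval covers counting error only, and variation between cultures was not measured.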

How the results depend on the processing

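Under each scaling tried, GADD45A kept a higher level with melatonin in both lines and GADD45B a lower level in JJ012, all past 0.58. In JJ012, GADD45A was at 1.42 with TPM, 1.21 with TMM and 1.47 with the running median over length subtracted, and GADD45B at -0.96 with the latter. GADD45B in 143B stayed within 0.1 of 0 in every setting, with its sign turning under TMM. The untreated log2 ratio of 143B to JJ012 was -1.18 for GADD45A, -0.83 with TMM and -0.80 with TPM, and for GADD45B 0.27, 0.62 and 0.65.
The number of genes past the threshold also moved. In JJ012, 3102 were higher and 2934 lower, and 5468 and 2474 with TPM, 1861 and 1491 with a filter of 5 FPKM, and 1241 and 1086 at a threshold of 1. In 143B, 861 were higher and 940 lower, and 1514 and 1434 with a pseudocount of 0.1 FPKM, 280 and 267 with 5 FPKM, 242 and 387 at a threshold of 1, and 1213 and 1520 with TPM. Of 28 list counts, 8 moved by over 1.5 times with TPM, 7 with CPM (filtered on CPM), 4 with the pseudocount of 0.1 FPKM and 0 with centring. The cause was not tested.
GADD45G had 0 counts in JJ012, so no alternative gave a value there. No paired analysis was possible because each group has 1 library. For the same reason no replicate could be left out, and depth limits GADD45G in 143B to 42 and 30 counts.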
